A study of Canis lupus familiaris with 8 samples.

Results

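A set of 6 mRNAs of the mitochondrial genome is described here in peripheral blood mononuclear cells of dogs: CYTB of respiratory complex III, COX1, COX2 and COX3 of complex IV, and ATP6 and ATP8 of complex V. They were chosen by symbol, and each of the 6 stood in 1 row of the 35048 rows listed for every dog. The obese group held 5 dogs, a Dachshund (dog 1), a Chihuahua (dog 2), 2 Labrador retrievers (dogs 3 and 4) and a Welsh Corgi (dog 5). The normal group held 3 dogs, all Beagles. No obese dog was a Beagle, so body condition and breed cannot be told apart in any value below. Mononuclear cells are the lymphocytes and monocytes separated from blood. Each library was a separate dog and counted a read near the poly(A) end of each transcript.

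Complexes III and IV pass electrons from ubiquinol to oxygen and pump protons across the inner mitochondrial membrane, and complex V, the ATP synthase, uses the proton gradient to make ATP. Most subunits of these complexes are encoded in the nucleus, and the mitochondrial genome encodes a small catalytic or membrane core of each. All members lie on one strand of the circular genome and are cut from long transcripts, mostly at the tRNAs between them. The ATP8 and ATP6 reading frames overlap on one mRNA, next to COX3, so reads in the overlap cannot be told apart between them. In this report each gene row is called an mRNA, so ATP8 and ATP6 are counted apart though they share an mRNA. Reads that also match nuclear copies of mitochondrial DNA are likewise uncertain, because no source used here gives their handling.

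Totals lay between 10264202 and 14910982 counts per library, at obese dogs 1 and 5. Obese dog 3 stood apart. A single gene without a characterised name took 20.6% of its counts, against 3.11 to 14.4% in the remaining obese dogs and 5.55 to 10.6% among normal dogs. Its 10 neutrophil markers summed to 8119 CPM (counts scaled to a common library size), against 340.3 to 981 CPM in the remaining obese dogs and 2049.9 to 8062 CPM among normal dogs. Its 8 erythroid markers summed to 1162 CPM, against 9.21 to 30.2 CPM in the remaining obese dogs and 6.89 to 10.8 CPM among normal dogs. The members' fold changes, shares and ratios and the counts of genes called in each list are therefore given with and without this dog. Of the labelled cells, the 8 T cell markers summed to at least 264.7 CPM and the 8 monocyte markers to at least 716.1 CPM in every dog. The 7 B cell markers summed to at least 33.3 CPM, and MS4A1, which encodes the B cell antigen CD20, was at 0 counts in normal dog 2.

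The 6 mRNAs were lower in the obese dogs by fold changes of 2.00 to 3.48, and none passed the test across all genes. Together they took 1.66, 1.49, 0.444, 1.45 and 1.28% of the counts of obese dogs 1 to 5, against 2.70, 3.83 and 2.91% of those of normal dogs 1 to 3. Every obese dog lay below every normal dog, and the 95% exact binomial interval of the lowest share, in obese dog 3, was 0.4398 to 0.4474% (counting error only). The mean share was 1.26 ± 0.478% in the obese dogs (SD, n = 5) and 3.15 ± 0.599% in the normal dogs (SD, n = 3), and it was 1.47 ± 0.154% in the 4 obese dogs other than dog 3. The median log2 fold change of the members was −1.48, against 0.09 over all 20632 genes tested, of which 4.08% had a lower value. In a bulk sample, fewer cells rich in these mRNAs and less of them per cell cannot be told apart.

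Counts of members are read against the whole table. By edgeR's quasi-likelihood test, 0 of the 6 members passed an adjusted p of 0.05, where 0.184% of the genes tested were called lower. All 6 were lower at an unadjusted p under 0.05, as were 6.73% of the genes tested. For 5 of the 6 every obese dog lay below every normal dog, which held for 5.16% of the genes tested. The exception was COX1. Without obese dog 3 all 6 members still had a negative log2 fold change and 4 of the 6 were called lower, where 5.03% of the genes tested were. Below, a gene said to have fallen or risen passed the threshold in that direction.

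COX1 encodes the catalytic subunit of cytochrome c oxidase, which holds the site where oxygen is reduced. It had 4068, 2629.7, 1342, 2107 and 2312 CPM in obese dogs 1 to 5, against 5004, 6265 and 3700.3 CPM in normal dogs 1 to 3. Obese dog 1 lay above normal dog 3, so the groups overlapped, and the other 4 obese dogs lay below every normal dog. The log2 fold change was −1.0 (standard error 0.361, adjusted p = 0.239, edgeR), and it was −0.88 without obese dog 3 (adjusted p = 0.112, edgeR).

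COX2 carries the copper centre that takes electrons from cytochrome c. It had 2924, 2299, 1052, 1815 and 1877 CPM in obese dogs 1 to 5, against 4205, 7615 and 4886 CPM in normal dogs 1 to 3. The groups did not overlap, with obese dog 1 the highest of its group and normal dog 1 the lowest of its own. The log2 fold change was −1.48 (standard error 0.354, adjusted p = 0.111, edgeR), and without obese dog 3 it was −1.35 (adjusted p = 0.0264, edgeR).

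COX3 encodes the third core subunit of complex IV, which carries no redox centre. It had 5069, 3617, 1470.2, 2855 and 2419 CPM in obese dogs 1 to 5, against 6578, 14364 and 7821 CPM in normal dogs 1 to 3. Normal dog 2 was far above the other 2 normal dogs, and the lowest normal dog was 1.30 times the highest obese dog. The log2 fold change was −1.64 (standard error 0.418, adjusted p = 0.129, edgeR), and without obese dog 3 it was −1.49 (adjusted p = 0.0361, edgeR). Without normal dog 2 it was −1.25.

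CYTB, or cytochrome b, is the one subunit of complex III made in the mitochondrion and holds both ubiquinone sites. It had 1012, 782, 307, 634 and 835 CPM in obese dogs 1 to 5, against 1879, 3509 and 2066 CPM in normal dogs 1 to 3. The lowest normal dog had 1.86 times the level of the highest obese dog, the widest gap among the 6 members. CYTB had the lowest log2 fold change of the members, −1.80 with a standard error of 0.379 (adjusted p = 0.0877, edgeR), and without obese dog 3 it was −1.64 (adjusted p = 0.011, edgeR).

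ATP6 encodes the subunit of the ATP synthase that forms the proton path beside the rotating ring. It had 6126, 4741, 1721, 4008 and 3629.7 CPM in obese dogs 1 to 5, against 7148, 12177 and 8856 CPM in normal dogs 1 to 3. The groups did not overlap, and normal dog 1 had 1.17 times the level of obese dog 1. The log2 fold change was −1.22 (standard error 0.39, adjusted p = 0.2, edgeR), and it did not pass without obese dog 3 either (−1.06, adjusted p = 0.0622, edgeR).

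ATP8 encodes a short membrane subunit of the ATP synthase. It had 616, 640, 528, 628 and 780 counts in obese dogs 1 to 5, against 1460, 1417 and 2585 counts in normal dogs 1 to 3. These were 69.9, 42.3, 59.9, 35.0 and 45.5 CPM among obese dogs and 102.6, 156.8 and 164.9 CPM among normal dogs. By CPM, obese dog 3, the lowest obese dog for the other 5 members, was the second highest for ATP8. This rank depended on the scaling. As an unscaled share of library counts, ATP8 took 0.00446% in obese dog 3, against 0.00444 to 0.006% in the remaining obese dogs. ATP8 had the smallest p of the members, at a log2 fold change of −1.49 (standard error of 0.278, adjusted p = 0.0686, edgeR), and it fell without obese dog 3 (−1.59, adjusted p = 0.00989, edgeR).

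**Figure D1:**
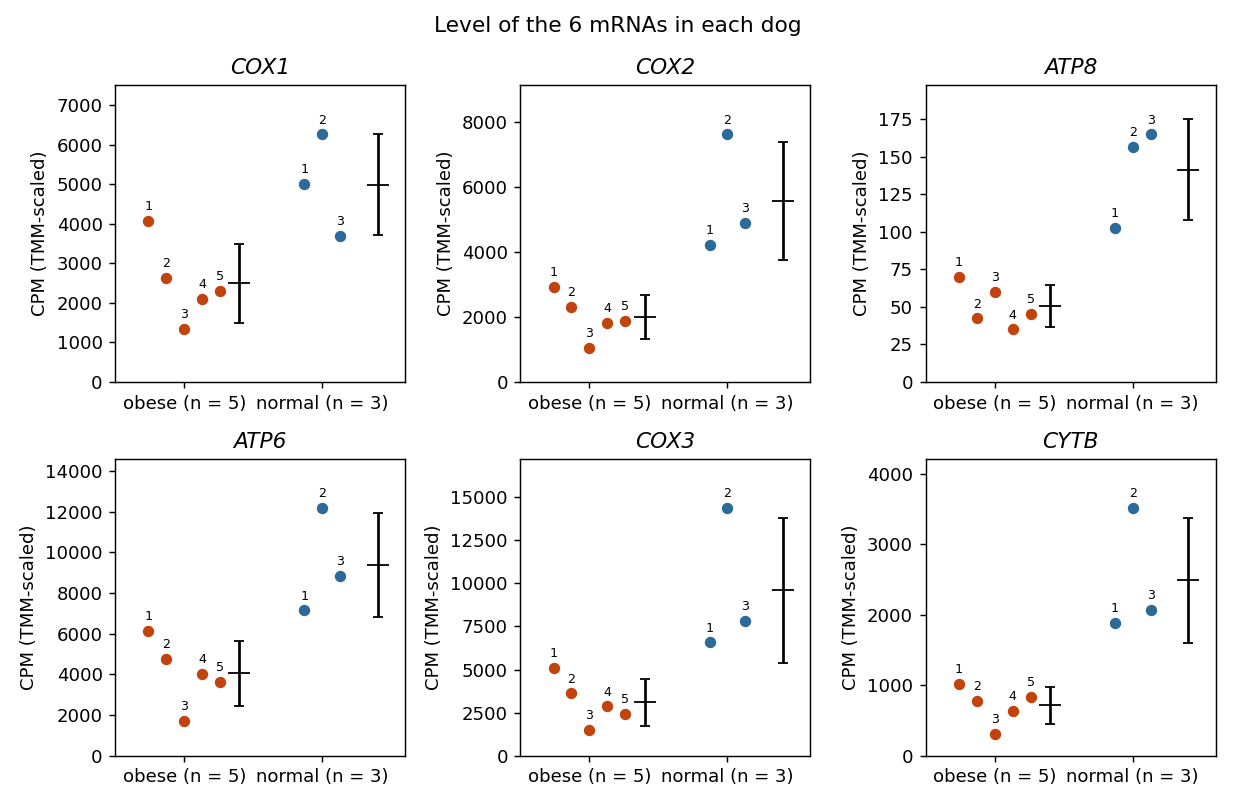
Level of each mRNA in TMM-scaled CPM (axes from 0) in the 5 obese dogs (orange, left) and the 3 normal dogs (blue, right), with the dog number over each point and bars for the mean ± SD of each group. The groups overlap in COX1, where obese dog 1 (4068 CPM) lies above normal dog 3 (3700.3 CPM), and do not in the other 5 mRNAs.

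Because every library also holds the 7 mitochondrial mRNAs of complex I, the members could be set against the 13 mitochondrial mRNAs of the same dog, a measure free of the scaling between libraries. It is given as a description, without a test. The members made up 71.9, 69.2, 64.3, 72.7 and 71.0% of the counts of the 13 mRNAs in obese dogs 1 to 5, against 58.7, 61.0 and 55.9% in normal dogs 1 to 3. Every obese dog lay above every normal dog, with means of 69.8 ± 3.36% (SD, n = 5) in the obese and 58.5 ± 2.52% (SD, n = 3) in the normal dogs, and it was 71.2 ± 1.49% in the 4 obese dogs other than dog 3. In the same libraries the 7 complex I mRNAs had −2.08 as their median log2 fold change, and 4 of them, ND1, ND2, ND5 and ND6, fell (adjusted p from 0.0115 to 0.049, edgeR). Leaving out 1 dog at a time, ND6 passed in 4 of 8 fits (without obese dog 3 or 5 or normal dog 1 or 2) and ND1, ND2 and ND5 in 1, the fit without obese dog 3, with adjusted p-values of up to 0.256 otherwise (edgeR). All 7 fell without obese dog 3, where 5.03% of the genes tested were called lower.

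The members did not share this shift evenly. COX1 took 12.9 to 15.2% of the mitochondrial mRNA counts among obese dogs and 7.53 to 11.8% among normal dogs. ATP6 took 18.6 to 25.4% among obese dogs and 16.8 to 18.0% among normal dogs, and COX2 took 10.9 to 12% among obese dogs and 9.91 to 10.5% among normal dogs. For these 3 mRNAs the shares of the groups did not overlap. COX3 took 15.4 to 18.9% among obese dogs and 15.5 to 19.9% among normal dogs, CYTB 3.31 to 5.33% among obese dogs and 4.20 to 4.85% among normal dogs, and ATP8 0.208 to 0.646% among obese dogs and 0.217 to 0.335% among normal dogs. The shares of COX3, CYTB and ATP8 overlapped between the groups. Without obese dog 3 the same 3 mRNAs, COX1, COX2 and ATP6, did not overlap, and ATP6 took at least 22.8% in the remaining obese dogs. Shares of one total depend on each other. As shares of the counts of the 6 members alone, with all dogs, COX1, COX2, ATP6 and ATP8 overlapped between the groups. By that measure COX3 took 21.8 to 26.3% among obese dogs and 26.4 to 32.6% among normal dogs. CYTB took 5.16 to 7.51% among obese dogs and 7.52 to 7.96% among normal dogs, so neither COX3 nor CYTB overlapped.

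**Figure D2:**
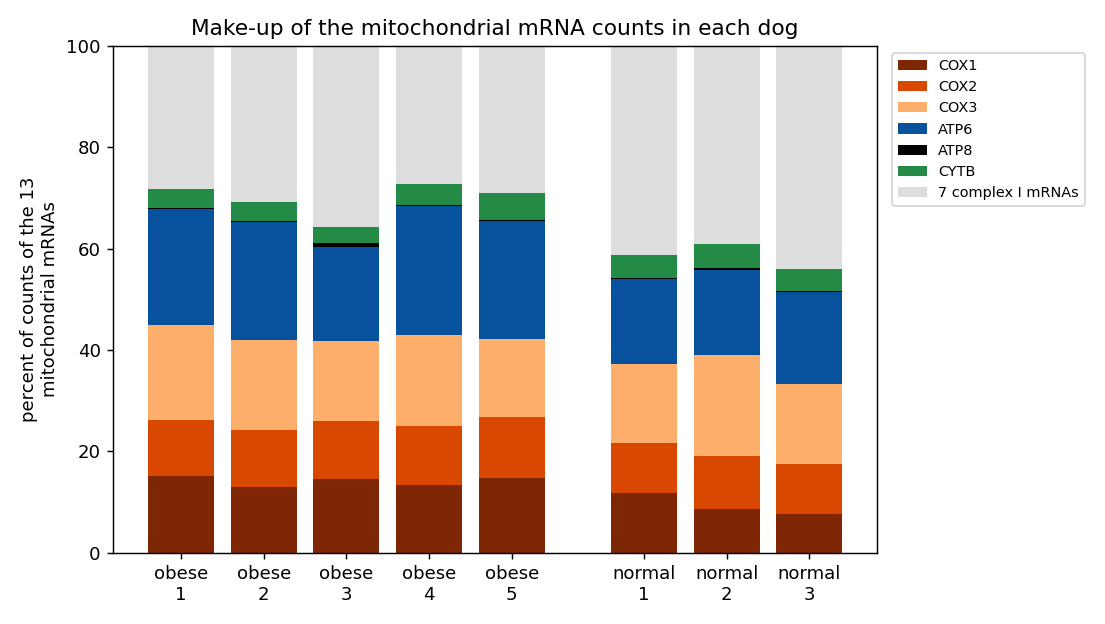
Share of each member, in percent, in the summed counts of the 13 mitochondrial mRNAs of each dog, with the 7 complex I mRNAs in grey (5 obese dogs on the left, 3 normal dogs on the right). The coloured part reaches 64.3 to 72.7% among obese dogs and 55.9 to 61.0% among normal dogs.

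Most ratios between members overlapped between the groups. Of the 15 ratios between 2 members, 3 did not overlap between the groups, where 19.2% of the 78 ratios between any 2 of the 13 mitochondrial mRNAs did not. COX3 over ATP6, whose genes are neighbours, was 0.666 to 0.854 among obese dogs and 0.883 to 1.18 among normal dogs. CYTB over COX1 was 0.229 to 0.361 among obese dogs and 0.375 to 0.56 among normal dogs. CYTB over ATP6 was 0.158 to 0.23 among obese dogs and 0.233 to 0.288 among normal dogs. Within complex IV the ratio of COX2 to COX1 overlapped, with 0.719 to 0.874 among obese dogs and 0.84 to 1.32 among normal dogs. COX3 over COX2 overlapped too, with 1.29 to 1.73 among obese dogs and 1.56 to 1.89 among normal dogs. Without obese dog 3, 6 of the 15 did not overlap, where 30.8% of the 78 did not. The other 3 were ATP6 over ATP8, ATP6 over COX2 and ATP8 over COX1.

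Of the 42 ratios of a member to a complex I mRNA, 12 did not overlap, where 19.2% of all 78 ratios did not. The 78 include these 42 and the 15 between members, so their share is not a separate background. These sets together held all 15 of the 78 ratios without overlap, so each of those ratios involved a member. All 12 were higher in the obese dogs, in which the complex I mRNAs had the lower median log2 fold change (−2.08, against −1.48 for the members). There were 18 without obese dog 3, all higher in the obese dogs, where 30.8% of the 78 did not overlap. ND2 and ND4 were in 4 of the 12 each. COX1 over ND2 was 2.76 to 5.14 among obese dogs and 0.975 to 1.73 among normal dogs. COX1 over ND4 was 1.08 to 1.29 among obese dogs and 0.472 to 0.745 among normal dogs, and ATP6 over ND4 was 1.53 to 2.46 among obese dogs and 0.952 to 1.13 among normal dogs. CYTB was in none of the 12.

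The nuclear subunits of the same complexes did not show the low values of the members. Of 37 genes listed, 27 were found under these symbols and 26 were tested, and none passed by edgeR, with 1 at an unadjusted p under 0.05, as were 3246 of the 20632 genes tested. Their log2 fold changes ran from −0.34 to 0.76 with a median of 0.07, 16 were positive and 10 negative, and in all 26 the groups overlapped, where 10.9% of the genes tested did not overlap. Without obese dog 3 none passed either (edgeR), with a median of 0.14.

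For complex III, UQCRH, the hinge protein that binds cytochrome c1, had 123.3 ± 46.1 CPM among obese dogs and 72.6 ± 13 CPM among normal dogs. This was the largest value of its list (log2 fold change 0.76, adjusted p = 0.286, edgeR). UQCRQ, a small subunit, had 40.0 ± 5.03 CPM among obese dogs and 29.7 ± 3.53 CPM among normal dogs, and UQCR10 had 48.0 ± 14.2 CPM among obese dogs and 33.2 ± 16.6 CPM among normal dogs. The 8 subunits tested had a median log2 fold change of 0.36.

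For complex IV, 5 of 11 nuclear subunits were found, with a median log2 fold change of 0.02. COX8A, a small membrane subunit, had 92.7 ± 23.8 CPM among obese dogs and 61.4 ± 16.5 CPM among normal dogs. COX5A, which binds near the matrix side of the core, had 15.1 ± 3.22 CPM among obese dogs and 17.1 ± 2.30 CPM among normal dogs, and COX5B, a zinc-binding subunit, had 49.3 ± 6.76 CPM among obese dogs and 53.8 ± 17.6 CPM among normal dogs. None passed, with adjusted p-values of at least 0.377 (edgeR). For complex V the 13 subunits tested had a median of 0.01. ATP5F1C, the central stalk subunit gamma, had 53.0 ± 17.4 CPM among obese dogs and 67.4 ± 0.912 CPM among normal dogs (adjusted p = 0.631, edgeR). ATP5MF, listed under its older symbol ATP5J2, had 90.9 ± 10.7 CPM among obese dogs and 73.3 ± 9.20 CPM among normal dogs, and ATP5PO, of the peripheral stalk, had 51.4 ± 19.8 CPM among obese dogs and 40.7 ± 15.5 CPM among normal dogs. ATP5ME was listed with 0 counts in every dog.

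**Figure D3:**
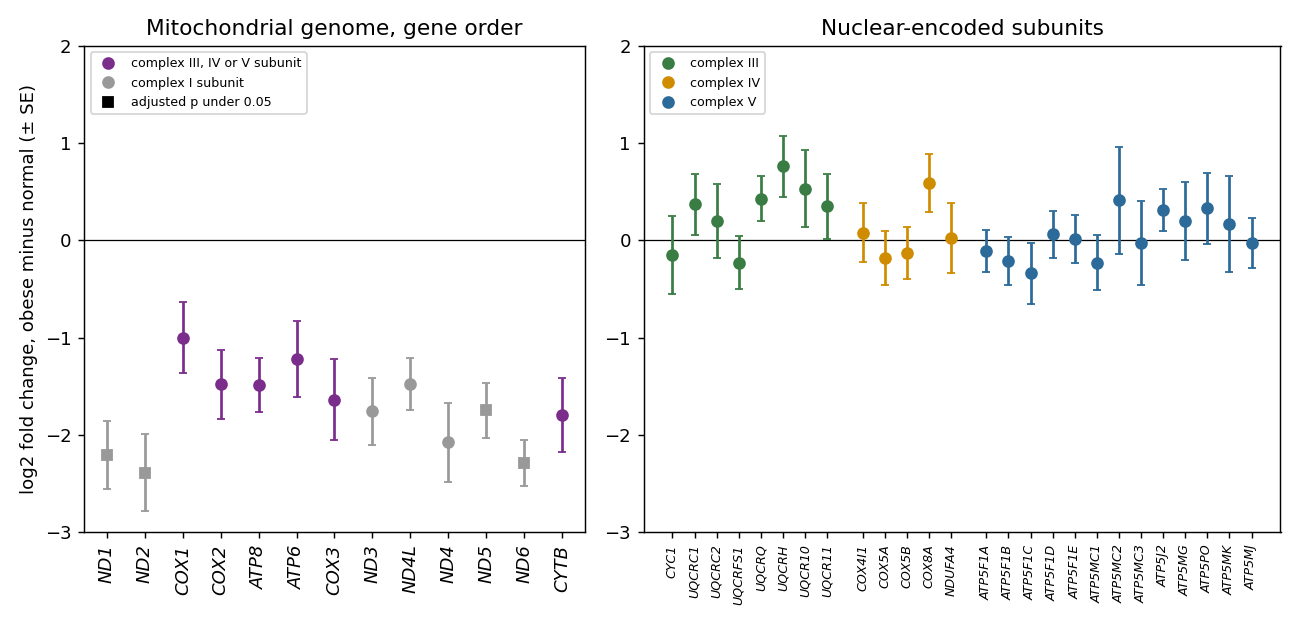
Log2 fold change, obese minus normal, with its standard error (edgeR, 5 obese and 3 normal dogs), for the 13 mitochondrial mRNAs in the gene order of the files (left, members in purple) and for 26 nuclear subunits of complexes III, IV and V (right). The members lie between −1.80 and −1.0 and the nuclear subunits between −0.34 and 0.76, and squares mark the 4 complex I mRNAs that passed.

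Assembly factors of complexes III, IV and V had a median log2 fold change of 0.29 over 25 genes tested, 17 positive and 8 negative, and none passed. The lowest was COX17, the copper chaperone that supplies the copper sites of COX1 and COX2 through other carriers, with 20.9 ± 12.2 CPM among obese dogs and 58.1 ± 8.22 CPM among normal dogs. Its log2 fold change was −1.47 (adjusted p = 0.19, edgeR). SCO1, which delivers copper to COX2, had 21.7 ± 2.04 CPM among obese dogs and 13.3 ± 2.55 CPM among normal dogs (0.70, adjusted p = 0.244, edgeR). COX19, another copper-related factor of complex IV, had 16.5 ± 4.42 CPM among obese dogs and 7.90 ± 2.53 CPM among normal dogs (1.06, adjusted p = 0.215, edgeR). In the fit without obese dog 3, COX19 (adjusted p = 0.0487) and the membrane insertase OXA1L (0.021) rose and TTC19, a complex III factor, fell (0.0127, edgeR), where 3.25% of the genes tested were called higher and 5.03% lower.

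Factors that transcribe, cut, polyadenylate and stabilise mitochondrial mRNAs had a median log2 fold change of 0.24 over 19 genes, 12 positive and 7 negative, and none passed. PNPT1, the mitochondrial polynucleotide phosphorylase, had 24.6 ± 3.16 CPM among obese dogs and 56.2 ± 33.2 CPM among normal dogs (adjusted p = 0.154, edgeR), and without obese dog 3 its adjusted p rounded to 0.05 and was just under the threshold (edgeR). TRMT10C, a subunit of the RNase P that cuts the tRNAs out, had 16.1 ± 4.01 CPM among obese dogs and 9.13 ± 2.42 CPM among normal dogs (adjusted p = 0.273, edgeR). TEFM, the mitochondrial transcription elongation factor, had 2.06 ± 0.577 CPM among obese dogs and 4.53 ± 1.87 CPM among normal dogs (adjusted p = 0.275, edgeR).

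The summed markers of 3 cell types did not overlap between the groups. The 8 T cell markers summed to 432.6 to 1174 CPM among obese dogs and 264.7 to 356.4 CPM among normal dogs, and all 8 had a positive log2 fold change with a median of 1.31. None passed (smallest adjusted p = 0.0932, edgeR), and without obese dog 3, 5 of the 8 rose. The 7 platelet markers found summed to 107.4 to 2662 CPM among obese dogs and 29.5 to 51.0 CPM among normal dogs, with GP1BB at 0 in every dog. None of the 6 tested passed (smallest adjusted p = 0.136, edgeR), and without obese dog 3, 5 rose. The 8 plasma cell markers summed to 105.5 to 227.3 CPM among obese dogs and 241.1 to 1102 CPM among normal dogs, and 1 of them, the receptor gene TNFRSF17, fell (adjusted p = 0.0228, edgeR, and past the threshold in 3 of the 8 fits without 1 dog, those without obese dog 3 or 5 or normal dog 2). Of the 8, 5 fell without obese dog 3. The sums of 8 monocyte, 10 neutrophil, 7 B cell, 8 cytotoxic and 8 erythroid markers overlapped between the groups. For monocyte and neutrophil markers the overlap came from obese dog 3 alone. In the remaining obese dogs the monocyte markers summed to 716.1 to 1020 CPM, against 1434 to 2731 CPM among normal dogs. The neutrophil markers summed to 340.3 to 981 CPM there, against 2049.9 to 8062 CPM among normal dogs. The monocyte sum hid mixed directions. With all dogs, 6 of the 8 monocyte markers had a positive log2 fold change and 2 a negative one (median 0.30). VCAN alone had 201.2 to 324.7 CPM in the remaining obese dogs and 920.5 to 2191 CPM among normal dogs. Of the 9 neutrophil markers tested, 6 had a negative log2 fold change and 3 a positive one. Without obese dog 3, 2 monocyte and 5 neutrophil markers fell, 1 erythroid marker rose, and no B cell or cytotoxic marker passed (edgeR). In that fit 3.25% of all genes tested were called higher and 5.03% lower, and every marker count without this dog is to be read beside these shares. The part of these cells in the values of the members was not tested.

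Outside the mitochondrial genome, the genes whose pattern over the 8 dogs was most like the mean of the 6 members were sought among 10102 genes with a gene name and a mean of at least 5 CPM. Likeness was the root mean square difference between log2 CPM profiles centred on their own mean, where the members themselves had 0.06 (COX2) to 0.46 (ATP8) and the genes searched had a median of 0.99. The 8 closest were ABRAXAS1, a scaffold of a DNA repair complex (0.24), LMNB1, or lamin B1 of the nuclear envelope (0.27), the polarity protein PARD3 (0.36), the mitotic kinase AURKB (0.38), GABRB1 (0.38), CACNA2D3 (0.39), ZGRF1 (0.39) and AGBL1 (0.39). These genes were chosen for likeness to a profile that was lower in the obese dogs, so their own difference gets no test. LMNB1 had 110.2 ± 21.2 CPM among obese dogs and 349.5 ± 98.5 CPM among normal dogs. ABRAXAS1 had 20.5 ± 5.77 CPM among obese dogs and 53.2 ± 9.52 CPM among normal dogs.

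The processing left the direction of the members as it was, and the calls depended on it. COX1 was closest to 0 in all 17 fits, and CYTB was farthest in 16 of them, the exception being limma-voom with quality weights, where ATP8 was farthest. All 6 members were below 0 in all 17 fits. Members passed in 3 of the 17. The DESeq2 Wald test called 5 members lower (adjusted p up to 0.0494), where 2.08% of all genes were called lower, and limma-voom with quality weights called all 6 (adjusted p up to 0.0333), where 9.96% were. The third was the fit without obese dog 3.

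**Figure D4:**
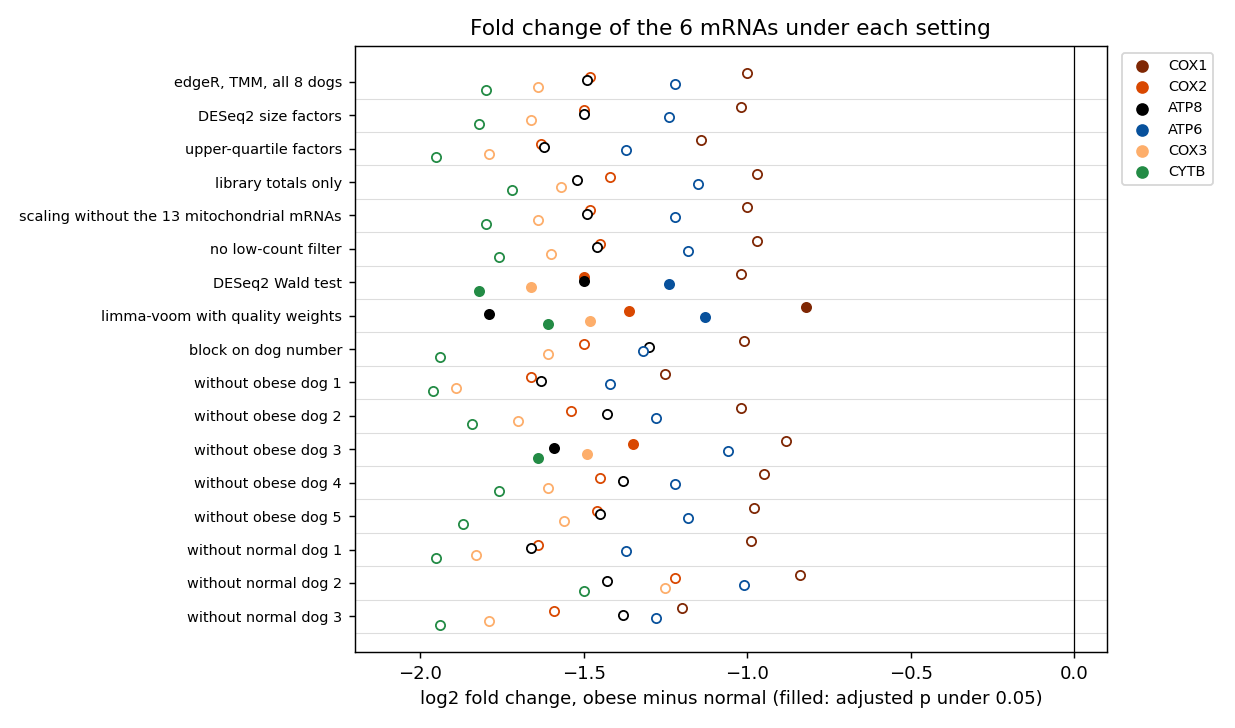
Log2 fold change, obese minus normal, of the 6 mRNAs (colours) in each of 17 fits (rows), with filled points where the adjusted p was under 0.05. Points are filled in 3 rows, the DESeq2 Wald test (5 mRNAs), limma-voom with quality weights (6) and the fit without obese dog 3 (4), and every point lies below 0.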

How the data were processed

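For each dog the authors deposited a table of raw, whole-number counts by gene symbol. Per the labels' protocols, Trizol-extracted RNA went into Lexogen QuantSeq libraries, and Bowtie2 and bedtools are named in the submitters' processing notes. The sources used here give no genome build, annotation, version or strand setting. Library totals were 10264202 to 14910982 counts, and no 2 libraries agreed within sampling noise (lowest chi-square per degree of freedom 35.9).

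Members were the rows with the symbols CYTB, COX1, COX2, COX3, ATP6 and ATP8. The test was edgeR 4.0.16 in R 4.3.3 (filterByExpr by group, 20632 genes kept, TMM scaling, robust glmQLFit and glmQLFTest). P-values were adjusted over all genes tested by the Benjamini-Hochberg method at 0.05. Fold changes (log2) are obese minus normal. Their standard error is the absolute fold change over the square root of F. The edgeR step was tested on simulated data. With 5 and 3 libraries it called 2% of the simulated 2-fold changes and 56% of the 4-fold changes. A gene that did not pass is therefore not shown to be unchanged. Alternatives used DESeq2 1.42.0 and limma 3.58.1. Where a symbol was repeated (500 rows in all), it stayed with the row of highest mean.

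Members and lists were chosen with earlier results of these data known. Shares, ratios and list counts without obese dog 3 were added after seeing the data. Named genes were the members, every called gene or otherwise the 3 with the smallest p of each list of nuclear genes, and the 8 most alike. Further cell type markers are given as sums. Protein and promoter sequences were not used here.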

Additional observations from a re-analysis of the deposited data

Results flagged for a closer look

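ATP8 took 0.646% of the mitochondrial mRNA counts in obese dog 3, against 0.208 to 0.29% in the remaining obese dogs and 0.217 to 0.335% among normal dogs. Its distance from the next obese dog was 0.811 of the range of the group, above the limit of 0.71 for 5 samples. Of 14 such groups of values examined, 1 was picked out in this way, and chance does so in about 1 in 20.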

How the results depend on the processing

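All 6 members kept a negative log2 fold change under the 16 alternatives. Under DESeq2 size factors, upper-quartile factors, library totals only, scaling without the 13 mitochondrial mRNAs and no low-count filter, 0 members passed, and their median ran from −1.63 to −1.45. The DESeq2 Wald test called 5 members, where 2.08% of all genes were lower: COX2 (−1.50, adjusted p = 0.00453), ATP8 (−1.50, 0.000869), ATP6 (−1.24, 0.0494), COX3 (−1.66, 0.00808) and CYTB (−1.82, 0.00109), but not COX1 (0.103). Limma-voom with quality weights called all 6, where 9.96% of all genes were lower: COX1 (−0.82, adjusted p = 0.0333), COX2 (−1.36, 0.00378), ATP8 (−1.79, 0.00138), ATP6 (−1.13, 0.00856), COX3 (−1.48, 0.00509) and CYTB (−1.61, 0.00263). It weighted obese dog 3 at 0.279 and normal dog 3 at 3.54.

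Leaving out 1 dog at a time gave log2 fold changes of −1.25 to −0.84 for COX1, −1.66 to −1.22 for COX2, −1.66 to −1.38 for ATP8, −1.42 to −1.01 for ATP6, −1.89 to −1.25 for COX3 and −1.96 to −1.50 for CYTB. The number of members called was 0 to 4, with 4 only without obese dog 3. Over all genes, leaving out 1 dog gave 0 to 661 genes higher and 2 to 1023 lower, against 10 and 38 with all dogs, and both maxima were without obese dog 3. Library totals only gave 0 higher and 7 lower, the DESeq2 Wald test 602 and 429, and limma-voom 1887 and 2055. The causes were not tested.

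With the dog number as a replicate block, 0 genes were higher, 0 lower and 0 members called (1634 genes at an unadjusted p under 0.05, edgeR), with log2 fold changes from −1.94 for CYTB to −1.01 for COX1. The numbers do not pair the dogs: deviations of same-numbered dogs correlated at −0.03, −0.21 and 0.01.

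The members' share of library counts was 1.39% in the obese and 3.45% in the normal dogs without the most abundant gene. Leaving ND6 out of the mitochondrial total gave COX2 12.1 and 11.0%, ATP6 24 and 18.8%, and CYTB 4.29 and 4.90% in the obese and normal dogs. No member had fewer than 528 counts in a dog.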

Other observations

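The order of the obese dogs by the summed level of the members can be set beside their platelet markers, a comparison chosen after the values were seen. Obese dogs 1, 2, 4, 5 and 3 had 19269, 14112, 11455, 11118 and 5953 CPM of the members, in falling order. The 7 platelet markers in these dogs summed to 2662, 909, 145.3, 260.3 and 107.4 CPM. Dogs 1, 2 and 3 held the same places in both orders, and dogs 4 and 5 changed places. The likeness was not particular to the members. The 7 mitochondrial complex I mRNAs summed to 7547, 6275, 4301, 4548 and 3311 CPM in obese dogs 1, 2, 4, 5 and 3. This was exactly the order of the platelet markers. Among obese dogs the sums of the nuclear complex IV and V subunits followed the order of the members exactly, and those of complex III did not. In the same dogs the nuclear complex IV subunits summed to 446.4, 379.7, 338.6, 310.9 and 214.1 CPM and the nuclear complex V subunits to 1265, 1151, 1094, 992 and 870 CPM. The nuclear complex III subunits summed to 560.1, 450.2, 399.3, 355.6 and 395 CPM. Among normal dogs the order was the opposite of that of the members. Normal dogs 1 to 3 had 391.9, 235.8 and 291.5 CPM for complex IV and 1338, 812 and 1044 CPM for complex V. The normal dogs had 24916, 44087 and 27494 CPM of the members with 35.9, 29.5 and 51.0 CPM of the platelet markers, so the normal group had more member counts and fewer platelet marker counts than the obese group. The part of platelets in these values was not tested.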
